A study of Mus musculus with 10 samples.

Results

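Among 5 libraries of interferon-pretreated mouse embryonic fibroblasts (MEFs), those taken at 1 h and 4 h stood apart from those taken at 0, 2 and 6 h in a set of genes that included many extracellular matrix genes. The split runs against the order of the times and is named by no label. The genes were chosen by their RPKM in the 5 pretreated libraries, the same values that are compared, so every difference between its sides is given here as a description, with no test and no average over the libraries of a side. A gene was counted where the 1 h and 4 h libraries did not overlap the 0, 2 and 6 h libraries on log2(RPKM + 1) and the nearest libraries of the sides were at least 1.5-fold apart. RPKM is a read count divided by transcript length and by library depth. Of 12168 genes that reached 1 RPKM in 2 or more of the 10 libraries, 47 were higher in the 1 h and 4 h pretreated libraries (0.386% of the genes) and 18 were lower (0.148%). Those percentages are what the rule itself selects. At the threshold, a gap of 0.5850 in log2 units, Rgs16 was just inside with 0.5892 and Clec11a just outside with 0.5846 among the higher genes, and Nceh1 was inside with 0.5944 and Nsdhl outside with 0.5687 among the lower ones. With DESeq2 size factors in place of the deposited scaling, the counts were 54 higher and 11 lower.

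The series holds 10 total RNA libraries from MEFs, connective tissue cells grown out of embryos. All cells came from C57BL/6 H3.3b-HA knock-in mice, in which an HA-tagged H3.3 cDNA stands in place of the H3f3b gene, so the pretreated and the naive cells share the modified histone locus. The pretreated arm and the naive arm each have 1 library at 0, 1, 2, 4 and 6 h, and the labels give interferon-beta (IFN-β) at 100 U per ml for all samples. The sources used here give neither the dose and length of the pretreatment nor any washout, and do not say whether the libraries of an arm came from 1 culture. The hours are taken to count from the addition of IFN-β. Libraries had between 83907506 and 268463961 counts in the pretreated arm and between 94402402 and 261020465 in the naive arm. Depth did not follow the split: the 1 h and 4 h pretreated libraries had 146280121 and 241435257 counts, against 129399749, 83907506 and 268463961 counts at 0, 2 and 6 h. Reads of the ribosomal RNA precursor Rn45s took 2.85% and 1.14% of the counts at 1 h and 4 h, against 3.90%, 1.42% and 1.14% at 0, 2 and 6 h, and these ranges overlap. H3f3b, the gene at the modified locus, had 12.8 and 10.6 RPKM at 1 h and 4 h, against 11.2, 11.3 and 11.4 RPKM at 0, 2 and 6 h and between 11.9 and 14.9 RPKM in naive cells.

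As background, fibroblasts build the extracellular matrix: fibrillar collagens give it tensile strength, and glycoproteins and small proteoglycans organise the fibrils. Type I interferons such as IFN-β act through a receptor and STAT transcription factors to switch on antiviral genes, and they can also slow growth and shift lipid metabolism. Cholesterol synthesis genes are controlled together by the sterol-sensing transcription factor SREBP2, the product of Srebf2.

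The libraries carried the fibroblast character that their label states. The 10 fibroblast markers, among them Col1a1, Vim and Thy1, were all above the expression filter, and their summed level was 12922 and 11640 RPKM in the 1 h and 4 h pretreated libraries, against 11130 (0 h), 10224 (2 h) and 9877 RPKM (6 h), and between 11611 and 14441 RPKM in naive cells. That sum keeps the order of the split, and the markers include collagens. With no minimum gap, 4 of the 10 markers were higher in both libraries and 1 was lower, beside 9.00% and 10.3% of all genes tested. The mesothelial markers summed to 21.2 and 19.7 RPKM at 1 h and 4 h, against 25.2, 23.6 and 24.0 RPKM at 0, 2 and 6 h and 10.9 to 16.8 RPKM in naive cells. The chondrocyte and bone markers summed to 34.42 and 34.44 RPKM, against 51.2, 55.5 and 35.6 RPKM and 30.9 to 59.7 RPKM in naive cells. The part of these cell types in the split was not tested. An interferon response was present in both arms. Isg15, a ubiquitin-like antiviral protein, was at 82.7, 141, 173, 300 and 322 RPKM in the pretreated 0, 1, 2, 4 and 6 h libraries, against 0.608, 15.9, 62.0, 195 and 254 RPKM in the naive ones. The pretreated 1 h library therefore held an Isg15 level that no naive library before 4 h had reached. Xist, the RNA of the inactive X chromosome, overlapped between the sides, with 53.8 and 70.9 RPKM at 1 h and 4 h, against 49.8, 65.5 and 65.3 RPKM at 0, 2 and 6 h.

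The gene with the widest gap was H19, an imprinted long noncoding RNA that is abundant in embryonic tissue and hosts a microRNA (mm10 chr7:142575532-142578146, minus strand). H19 had 43.7 and 44.4 RPKM in the 1 h and 4 h pretreated libraries, against 9.39, 9.19 and 9.78 RPKM in the pretreated 0, 2 and 6 h libraries. In the naive libraries it had 110, 123, 89.5, 53.4 and 55.2 RPKM at 0, 1, 2, 4 and 6 h. The values within each side of the pretreated split lay close together, the nearest libraries of the sides were 4.15-fold apart on RPKM + 1, and all 5 pretreated libraries were below the lowest naive one. Mir675, the microRNA gene within H19, showed the same order, with 18.6 and 22.2 RPKM at 1 h and 4 h, against 5.95, 3.71 and 4.91 RPKM at 0, 2 and 6 h. Its locus lies inside the H19 transcript, so reads of H19 and of Mir675 cannot be told apart here. The mature miR-675 sequences (RefSeq, GRCm38.p6, chromosome 7, minus strand) are shown because they are the only small RNA product of the top gene, with the seed, bases 2 to 8, in capitals.
mmu-miR-675-5p: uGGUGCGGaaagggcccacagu
mmu-miR-675-3p: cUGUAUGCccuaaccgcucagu
The arms carry different seeds, and the total RNA libraries do not measure either mature form apart from its host.

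The next widest gap was that of a gene of the insulin-like growth factor pathway. Igfbp2, a secreted protein that binds insulin-like growth factors (mm10 chr1:72824480-72852471, plus strand), had 21.2 and 21.4 RPKM in the 1 h and 4 h pretreated libraries, against 5.34, 3.81 and 5.25 RPKM in the 0, 2 and 6 h libraries. Its naive values were 45.6, 59.8, 38.2, 26.1 and 22.8 RPKM at 0, 1, 2, 4 and 6 h. Igfbp2 thus resembled H19 in being below the naive range in all 5 pretreated libraries, and least so at 1 h and 4 h. Igf1, the growth factor itself, had 18.8 and 14.4 RPKM, against 6.85, 5.31 and 4.20 RPKM on the other side, while naive cells held 17.9, 20.3, 15.5, 10.7 and 5.93 RPKM. For Igf1 the 1 h and 4 h libraries lay inside the naive range. Of the 13 genes of the pathway list, these 2 were the only ones past 1.5-fold. With no minimum gap, 5 of the 13 were higher and 1 was lower in the 1 h and 4 h libraries, beside 9.00% and 10.3% of all genes tested.

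Matrix genes were the largest listed group among the 47. Postn, the matricellular protein periostin (mm10 chr3:54361107-54391041, plus strand), had 627 and 679 RPKM in the 1 h and 4 h pretreated libraries, against 285, 303 and 326 RPKM in the 0, 2 and 6 h libraries and 510, 565, 573, 518 and 471 RPKM across the naive times. The 1 h and 4 h values stood above every naive library and the other pretreated values below every one. Fmod, a small proteoglycan that binds collagen fibrils, had 13.5 and 11.3 RPKM, against 5.03, 3.98 and 3.34 RPKM on the other side. Mfap4, a microfibril-associated protein, had 4.98 and 6.36 RPKM, against 1.44, 1.41 and 1.62 RPKM. These genes span a wide range of abundance, and the order in each is what the rule selected.

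Aspn, another small proteoglycan, had 142 and 191 RPKM at 1 h and 4 h, against 53.9, 70.3 and 89.9 RPKM at 0, 2 and 6 h. Mfap5 and Mfap2, which associate with elastic microfibrils, were members as well. Cthrc1, a secreted protein with a collagen triple helix repeat, had 3.70 and 4.36 RPKM, against 1.24, 1.74 and 1.74 RPKM. Of 32 matrix glycoproteins and proteoglycans tested, 19 were higher in both the 1 h and 4 h libraries with no minimum gap and none was lower, and 5 passed 1.5-fold. Over all genes tested, 9.00% were higher and 10.3% lower with no minimum gap. The genes of this list without such an order included the abundant Fn1 (fibronectin) and Fbn1 (fibrillin), for which the sides overlapped.

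Collagens showed the order most often. Of 18 collagen genes tested, 15 were higher in the 1 h and 4 h pretreated libraries with no minimum gap and none was lower, and Col8a2, Col14a1 and Col11a1 passed 1.5-fold, of which Col11a1 did not with TMM scaling (a gap of 0.57 in log2 units). Col14a1, a fibril-associated collagen, had 10.5 and 10.5 RPKM at 1 h and 4 h, against 4.36, 4.58 and 5.24 RPKM at 0, 2 and 6 h and between 5.95 and 11.3 RPKM in naive cells. Col1a2, a chain of the main fibrillar collagen, had 2028 and 2069 RPKM, against 1270, 1424 and 1426 RPKM. Col3a1, a fibrillar collagen of soft tissue, had 951 and 1116 RPKM, against 548, 661 and 737 RPKM. The exceptions were Col4a1 and Col4a2, chains of basement membrane collagen, and Col8a1, in which the sides overlapped. In the naive arm, the same hours set no collagen gene apart in either direction. Over all genes they set 2.85% higher and 4.46% lower, so none of 18 is near that background.

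Proteases of the matrix had the same direction in part. Mmp9, a gelatinase, had 4.95 and 4.07 RPKM at 1 h and 4 h, against 0.707, 0.806 and 0.708 RPKM at 0, 2 and 6 h. Adamts2, which removes the propeptide of procollagens, had 18.3 and 18.5 RPKM, against 10.8, 8.34 and 10.6 RPKM. Of 20 proteases and inhibitors, 9 were higher with no minimum gap and none was lower, and Mmp9 and Adamts2 were the 2 members. Under the other scalings that list gave 8 to 9 higher and up to 1 lower, and after subtraction of the naive library of the same time 5 higher and 3 lower. Smooth muscle type contractile genes followed, with 7 of 12 higher and none lower. Acta2, smooth muscle actin, had 1512 and 1241 RPKM, against 984, 870 and 926 RPKM. Lmod1, an actin nucleator, was the only contractile gene past 1.5-fold, with 8.53 and 7.97 RPKM, against 4.76, 2.13 and 4.08 RPKM.

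**Figure D1:**
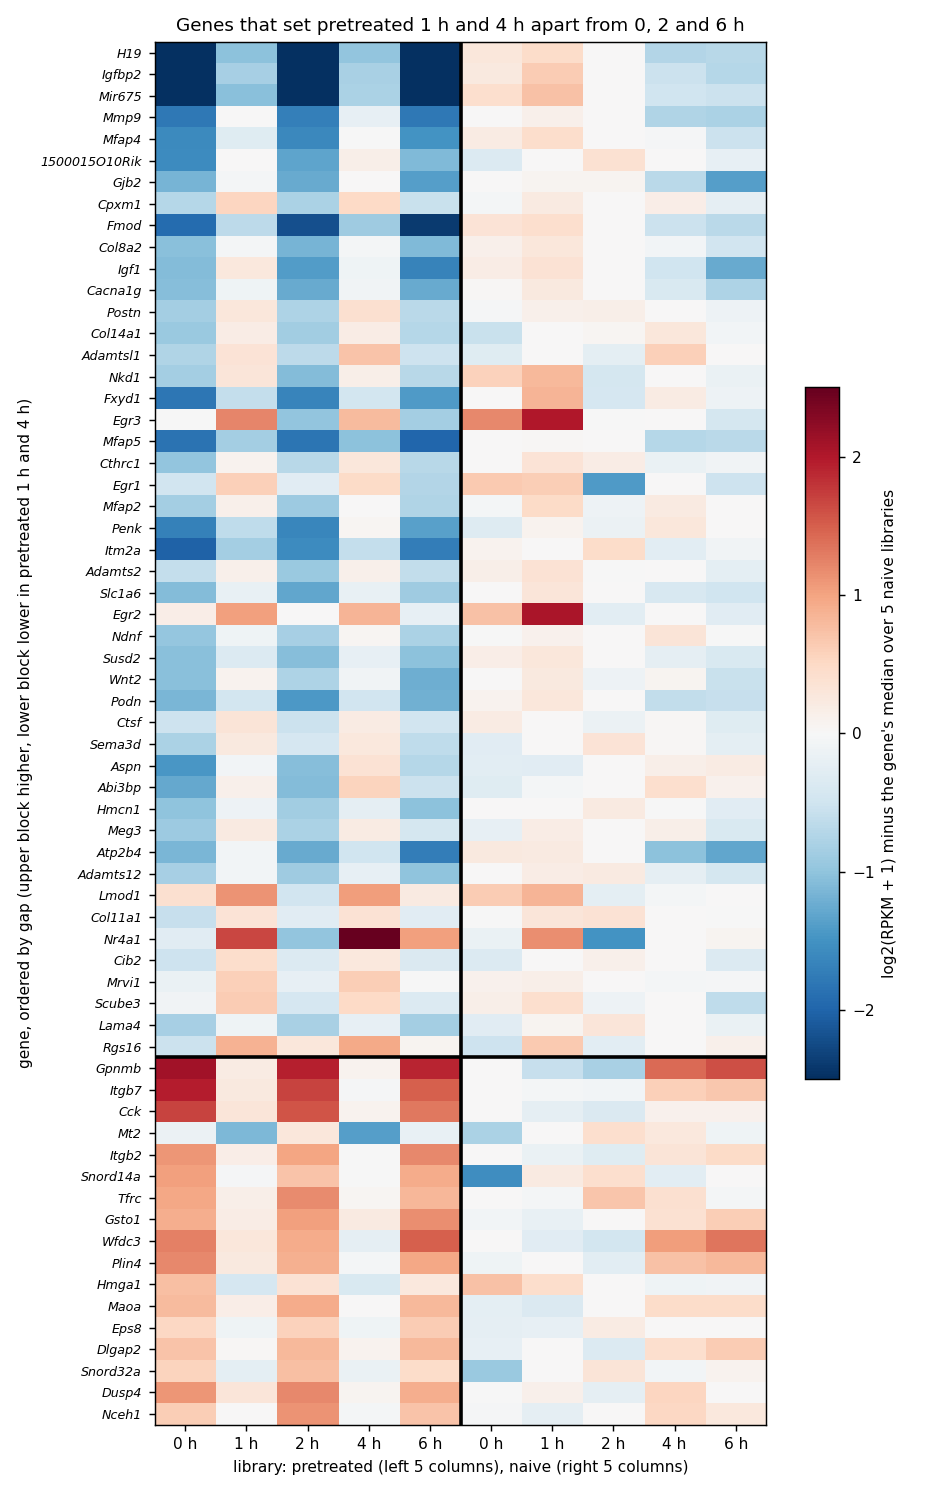
Each row is a gene of the split, 47 higher above the thick line and 17 of the 18 lower below it, and each column is a library, with the 5 pretreated libraries left of the thick vertical line and the 5 naive ones right of it. Colour gives log2(RPKM + 1) minus the gene's median over the naive libraries, cut at 2.5 on either side. In the upper block the pretreated 0, 2 and 6 h columns are mostly blue while the 1 h and 4 h columns are mostly pale, and in the lower block the same 3 columns are mostly red.

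Many of the 47 genes code for proteins that enter the secretory pathway, a property that the rule did not use. In RefSeq, the product name contains "precursor" or "preproprotein" for 30 of the 44 higher genes with a product name (68.2%) and for 5 of the 16 lower genes with one (31.3%), beside 15.1% of all tested genes with one. Among the higher genes outside the lists were Ndnf and Sema3d, secreted cues for nerve and vessel growth, Penk, the opioid peptide precursor, and Gjb2, a gap junction channel. Penk had 103 and 166 RPKM at 1 h and 4 h, against 49.1, 50.7 and 61.5 RPKM at 0, 2 and 6 h. Gjb2 had 13.9 and 14.5 RPKM, against 5.89, 5.42 and 4.97 RPKM.

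Immediate early transcription factors, which growth factors switch on within minutes, made up a further group. Egr1 had 106 and 98.4 RPKM in the 1 h and 4 h pretreated libraries, against 49.8, 57.5 and 42.0 RPKM in the 0, 2 and 6 h libraries. Nr4a1, an orphan nuclear receptor, had 42.3 and 76.8 RPKM, against 10.3, 5.93 and 27.0 RPKM. Egr2 and Egr3, which bind the same kind of site as Egr1, were members too. In naive cells these genes varied by library as well, Egr1 with 111, 108, 25.7, 70.0 and 48.9 RPKM at 0, 1, 2, 4 and 6 h. Of 23 immediate early genes, 5 were higher and none lower with no minimum gap. When the naive library of the same time was subtracted, none of the 23 was higher and 3 were lower, so the direction for this list depended on the naive values.

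Imprinted genes were more often higher than lower at 1 h and 4 h. Meg3, a maternally expressed noncoding RNA, had 41.4 and 40.6 RPKM at 1 h and 4 h, against 18.2, 20 and 25.6 RPKM at 0, 2 and 6 h. Of 29 imprinted genes tested, 10 were higher and 1 was lower with no minimum gap, and H19 and Meg3 passed 1.5-fold. Over all genes tested, 9.00% were higher and 10.3% lower. Under the TMM and DESeq2 scalings the imprinted list gave 13 and 14 higher and none lower. Subtraction of the naive library of the same time gave 11 higher and 1 lower. Igf2, which neighbours H19, was near the detection filter, with 0.830 and 1.09 RPKM, against 0.679, 0.673 and 0.655 RPKM. Hox genes, which record the position of fibroblasts in the body, gave no member, and 7 of 30 were higher by small margins with none lower. After subtraction of the naive library of the same time, 4 Hox genes were higher and 5 lower. The 65 genes lay on 20 different chromosomes.

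**Figure D2:**
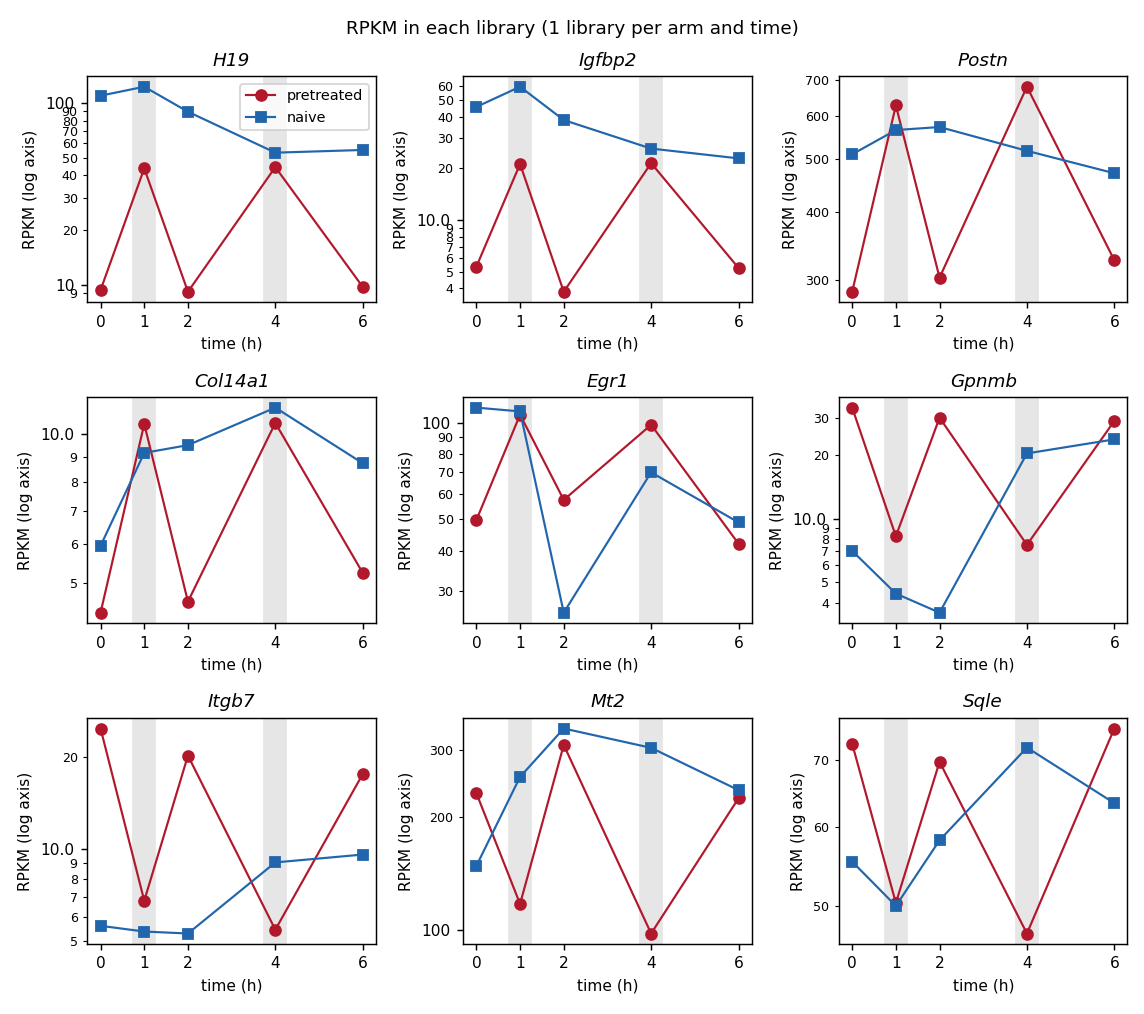
RPKM on a log axis against time for 9 genes, red circles for the pretreated and blue squares for the naive libraries, with 1 library at each point and the 1 h and 4 h times shaded. H19, Igfbp2, Postn, Col14a1 and Egr1 have pretreated peaks at 1 h and 4 h, while Gpnmb, Itgb7, Mt2 and Sqle have troughs there.

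Fewer genes were lower in the 1 h and 4 h libraries, and their roles were more varied. Gpnmb, a transmembrane glycoprotein of lysosomes and melanosomes (mm10 chr6:49036518-49058182, plus strand), had 8.25 and 7.51 RPKM in the 1 h and 4 h pretreated libraries, against 33.4, 29.9 and 28.9 RPKM in the 0, 2 and 6 h libraries. Its naive values were 7.04, 4.42, 3.59, 20.3 and 23.7 RPKM at 0, 1, 2, 4 and 6 h. The pretreated 0, 2 and 6 h libraries were thus above the naive range and the other 2 inside it. Itgb7, an integrin beta chain best known from lymphocyte homing (mm10 chr15:102215995-102231935, minus strand), had 6.79 and 5.46 RPKM, against 24.9, 20.3 and 17.6 RPKM, and between 5.30 and 9.62 RPKM in naive cells. Cck, the peptide hormone cholecystokinin, had 1.57 and 1.22 RPKM, against 5.77, 5.19 and 4.20 RPKM.

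Itgb2, the common beta chain of leukocyte integrins, had 1.03 and 0.791 RPKM at 1 h and 4 h, against 2.90, 2.59 and 3.17 RPKM at 0, 2 and 6 h. Because integrins of this kind and Gpnmb are prominent in macrophages, the macrophage markers were read beside them. The summed level of the macrophage markers was 2.77 and 2.70 RPKM at 1 h and 4 h, against 3.56, 4.08 and 4.13 RPKM at 0, 2 and 6 h and 2.515 to 4.002 RPKM in naive cells. Only Cd68, a lysosomal protein that other cells also make, passed the expression filter, with 1.89 and 1.94 RPKM against 3.12, 3.21 and 3.57 RPKM. Of the other markers, Emr1 was listed at 0 in all libraries and Ptprc was at most 0.003 RPKM. Csf1r, Lyz2 and Itgam did not pass the filter either. Without Cd68, the rest of the sum overlapped between the sides. In these bulk libraries, fewer cells of a type and less RNA per cell cannot be told apart.

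The metallothionein Mt2, which binds zinc and copper, had 117 and 97.7 RPKM at 1 h and 4 h, against 231, 310 and 224 RPKM at 0, 2 and 6 h. Naive cells held 148, 255, 343, 305 and 235 RPKM, so here the 1 h and 4 h libraries were the ones outside the naive range. Mt1 had the same order with a gap of 1.42-fold. Tfrc, the transferrin receptor that brings iron into the cell, had 6.66 and 6.15 RPKM, against 12.6, 14.7 and 11.3 RPKM. Gsto1, a glutathione transferase, had 157 and 162 RPKM, against 259, 282 and 311 RPKM. Plin4 and Nceh1 act in lipid droplets and in cholesterol ester turnover, and Maoa breaks down monoamines. The small nucleolar RNAs Snord14a and Snord32a lie within host genes that share their reads. Without small RNA genes inside hosts and near-identical copies, a choice made after the values were seen, 46 higher and 15 lower genes remained.

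Cholesterol synthesis genes gave no member at 1.5-fold, yet they were lower at 1 h and 4 h more uniformly than any other list of at least 10 tested genes. With no minimum gap, 17 of 18 tested genes were lower in both libraries and none was higher. Sqle, which makes squalene epoxide, had 50.3 and 46.9 RPKM at 1 h and 4 h, against 72.6, 69.6 and 75.2 RPKM at 0, 2 and 6 h. Fdps, which makes farnesyl diphosphate, had 23.2 and 21.3 RPKM, against 38.3, 33.8 and 39.5 RPKM. Nsdhl, a sterol dehydrogenase, came closest to the 1.5-fold threshold of all lower genes left outside it, with a gap of 1.48-fold. The exception was Hmgcs1, with 60.8 and 66.9 RPKM, against 66.9, 78.5 and 82.0 RPKM.

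In the naive arm, the same hours gave 2 cholesterol genes higher and none lower, beside 2.85% and 4.46% of all genes. The naive time test called none of the 18. The median of the list, in log2 units from each gene's naive median, was -0.21 and -0.28 in the 1 h and 4 h pretreated libraries and 0.30, 0.21 and 0.28 in the 0, 2 and 6 h libraries. The medians over all tested genes lay between -0.03 and 0.04 in the same libraries. Lipid storage genes went along, with 6 of 10 lower and 1 higher, among them Scd1, a fatty acid desaturase, with 46.4 and 36.7 RPKM against 84.5, 81.0 and 59.7 RPKM. The 4 adipocyte markers summed to 5.64 and 4.12 RPKM at 1 h and 4 h, against 9.64, 9.43 and 7.08 RPKM at 0, 2 and 6 h and 4.048 to 6.999 RPKM in naive cells, with Adipoq and Plin1 at or near 0, and their part in the result was not tested. The cholesterol count was 16 under both other scalings and 15 after subtraction of the naive library of the same time. The collagen count was 15 under each scaling and 8 after that subtraction. The subtraction also left 15 higher and 2 lower matrix glycoproteins and proteoglycans, 4 higher contractile genes, and 3 higher and 2 lower genes of the insulin-like growth factor list.

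**Figure D3:**
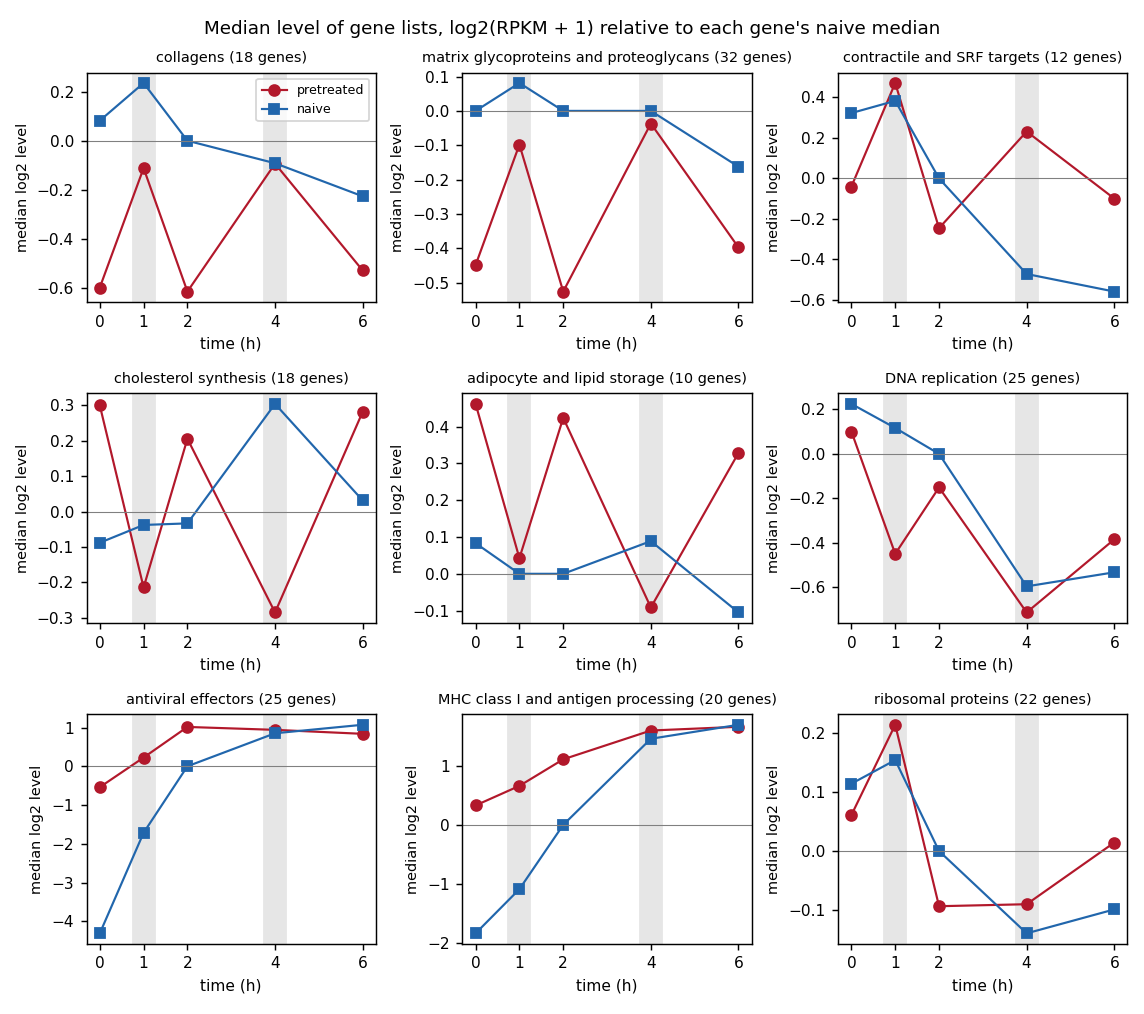
Median level of 9 gene lists in each library, as log2(RPKM + 1) relative to each gene's naive median, against time, red circles for pretreated and blue squares for naive, with vertical scales that differ between panels. The collagen and matrix medians have pretreated peaks at 1 h and 4 h, the cholesterol median has troughs there, and the antiviral median goes up with time until 2 h in pretreated cells and throughout in naive cells.

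DNA replication genes were lower at 1 h and 4 h in part, with 10 of 25 lower and none higher. Pcna, the sliding clamp of DNA polymerase, had 44.9 and 41.3 RPKM, against 60.8, 60.8 and 59.7 RPKM. That count was 21 without the pretreated 1 h library and 20 without the 6 h library. It was 10, 12 and 13 without the 0, 2 and 4 h libraries. Such a count cannot go down when a library is left out. Among mitosis genes 1 of 24 was lower and none higher, while 23 were lower without the pretreated 1 h library and 19 without the 6 h library. With all 5 libraries, 0 of 25 antiviral effectors, 0 of 14 interferon-inducible GTPases and 0 of 20 genes of MHC class I and antigen processing were higher or lower in both the 1 h and 4 h libraries. Without the 1 h library, 8 antiviral effectors, 8 GTPases and 9 MHC class I and processing genes were higher at 4 h than at 0, 2 and 6 h. Without the 4 h library, 4 MHC class I and processing genes were lower at 1 h, and without the 6 h library 4 were higher. Ribosomal protein genes (22) and oxidative phosphorylation genes (20) also gave none in either direction with all 5 libraries, although under the other scalings up to 2 ribosomal genes were higher and up to 1 oxidative phosphorylation gene was lower. Without the 4 h library, 17 ribosomal and 6 oxidative phosphorylation genes were higher, and without the 1 h library 9 ribosomal and 11 oxidative phosphorylation genes were lower. Leaving out a library loosens the rule for all genes. Of all 12168 genes, 1983 were higher and 4167 lower without the 1 h library. Without the 4 h library 2943 were higher and 1954 lower, and without the 6 h library 1882 were higher and 2174 lower.

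**Figure D4:**
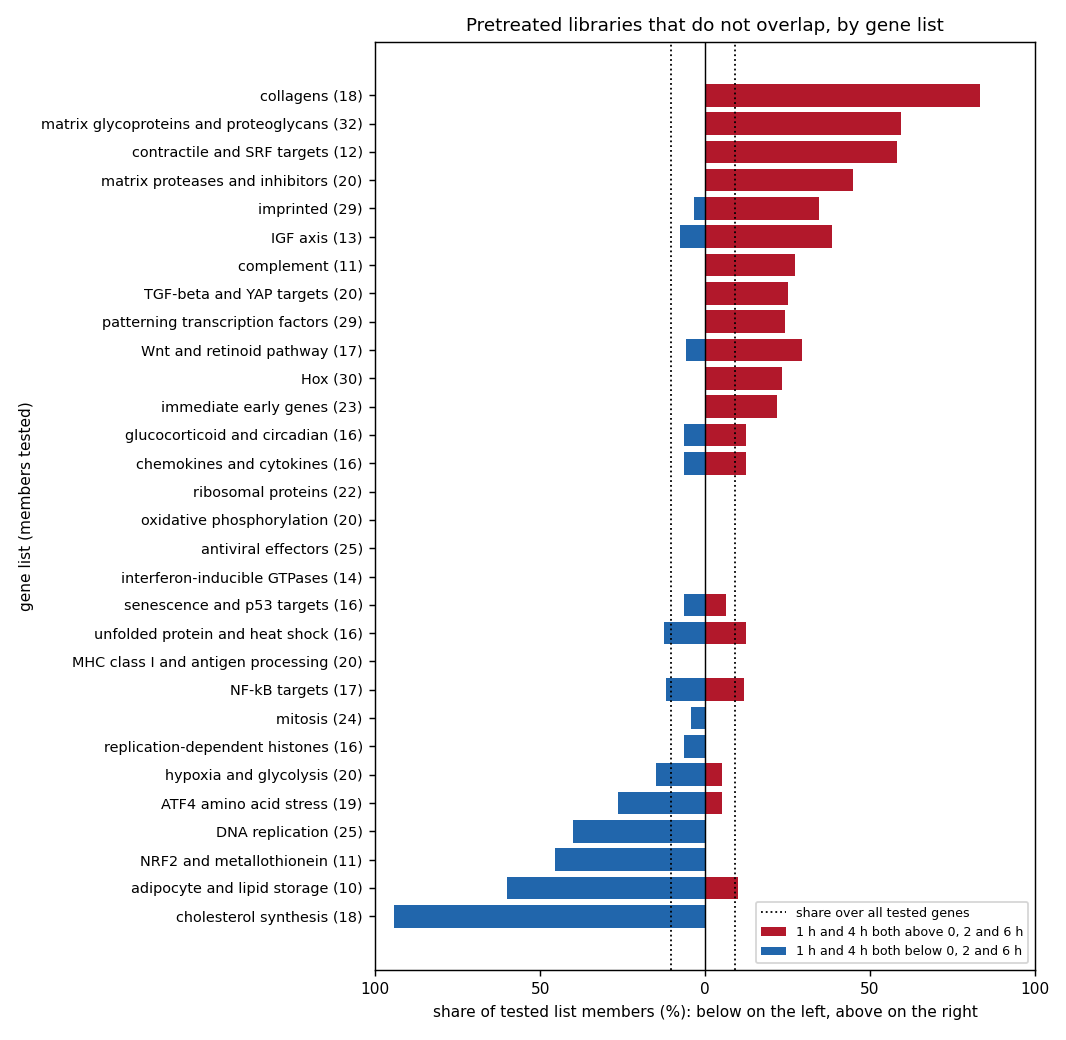
Share of the tested members of each gene list for which the 1 h and 4 h pretreated libraries were both above (red, right) or both below (blue, left) the 0, 2 and 6 h libraries, with no minimum gap and tested members in brackets. Dotted lines mark the shares over all 12168 genes, 9.00% above and 10.3% below. Lists with at least 10 tested genes are drawn, without the cell type markers, and among these collagens extend farthest to the right and cholesterol synthesis genes farthest to the left.

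Set against the naive libraries, it was mostly the 0, 2 and 6 h libraries that lay outside the naive range. For 35 of the 47 higher genes, all 3 of these libraries were below the lowest naive library, beside 3.39% of all genes tested. For 14 of the 18 lower genes, all 3 were above the highest naive library, beside 4.73% of all genes. The 1 h and 4 h pretreated libraries were both inside the naive range for 25 of the 47 and 14 of the 18, beside 57.2% of all genes. The full pattern, with 1 h and 4 h inside and the rest below, was held by 19 of the 47 (1.16% of all genes), and its mirror image by 13 of the 18 (1.19%). For 9 of the 47, among them Postn, Meg3 and Nr4a1, the 1 h and 4 h libraries were both above the naive range (4.59% of all genes). For 6, among them H19 and Igfbp2, all 5 pretreated libraries were below it (0.871% of all genes). These shares rest in part on the values that chose the genes.

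Matched by time, the median difference of the 47 genes, pretreated minus naive, was -0.18 and 0.14 at 1 h and 4 h, against -1.04, -1.06 and -0.56 at 0, 2 and 6 h, on the log2(RPKM + 1) scale. For the 18 lower genes it was 0.21 and -0.35, against 1.08, 1.07 and 0.41. Over all tested genes the medians lay between -0.03 and 0.05. At 6 h the arms were near each other for some of them, as for Gpnmb with 28.9 RPKM in the pretreated and 23.7 RPKM in the naive library. With the time-matched difference in place of the level, 16 higher and 13 lower genes passed 1.5-fold, of which 11 were among the 47 and 3 among the 18. The 11 included H19, Mmp9, Postn and Aspn, and the 3 were Cck, Mt2 and Dusp4.

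The 2 libraries of the split lay closer together than the others. Over the 47 genes, the median distance between the 1 h and 4 h libraries was 0.13 in log2 units, the median range of the 0, 2 and 6 h libraries was 0.32 and that of the 5 naive libraries was 0.78. Over the 18 lower genes these were 0.11, 0.31 and 0.84. A range over 2 libraries is smaller than one over 3 or 5 by construction, and the gap rule favours tight sides. The same hours in the naive arm gave no gene at 1.5-fold in either direction (0%). With no minimum gap they gave 347 higher (2.85%) and 543 lower genes (4.46%), against 1095 and 1254 in the pretreated arm. The difference between the arms was not tested.

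What the 65 genes did with time in naive cells was measured in libraries that the split does not use. A linear trend over the 5 naive libraries was tested with edgeR's quasi-likelihood test, with Benjamini-Hochberg adjustment over 12168 genes and a threshold of 0.05. It called 907 genes rising (7.45%) and 755 falling (6.20%). Of the 47 higher genes, 8 fell with time and none rose, and of the 18 lower genes, 4 rose and none fell. Slopes were below 0 in 37 of the 47 and above 0 in 16 of the 18, beside 50.7% below and 49.3% above 0 over all genes.

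Atp2b4, a plasma membrane calcium pump, fell by 0.34 ± 0.04 log2 units per hour (SE, edgeR adjusted p = 0.0236, 5 naive libraries). Igf1 fell by 0.27 ± 0.05 (edgeR adjusted p = 0.0268) and Fmod by 0.19 ± 0.03 (edgeR adjusted p = 0.0274). H19 fell by 0.19 ± 0.04 (edgeR adjusted p = 0.0392) and Igfbp2 by 0.20 ± 0.05 (edgeR adjusted p = 0.0430). Gjb2, Mmp9 and Cacna1g were the other called genes among the 47. Among the lower genes, Plin4 rose by 0.31 ± 0.07 log2 units per hour (edgeR adjusted p = 0.0412), Itgb7 by 0.18 ± 0.04 (edgeR adjusted p = 0.0387), and Maoa and Gsto1 were called as well. Gpnmb, with naive values between 3.59 and 23.7 RPKM, did not pass the test. Of the gene lists, the same test called 6 of 12 contractile genes, 12 of 25 DNA replication genes, 12 of 24 mitosis genes and 3 of 18 collagens falling in naive cells.

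Each time had 1 library, so these p-values set the slope against the scatter of the libraries about a straight line, and the spread between cultures was not measured. The calls depended on single libraries. Without the naive 0 h or the naive 1 h library edgeR called none of the 12168 genes, while 3043 and 3329 genes had an unadjusted p under 0.05. It called 2780 genes without the 2 h library, 289 without the 4 h library and 741 without the 6 h library. Of the 12 calls among the split genes, 11 were lost without the 4 h library and 11 without the 6 h library. DESeq2 on the 5 libraries called 17 of the 47 falling and 7 of the 18 rising.

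Promoter windows, from 250 bases before to 50 after the start in RefSeq (GRCm38.p6), were available within 50 bases of the deposited start for 24 of the 47 higher genes, 11 of the 18 lower genes, 10 of the 18 cholesterol genes and 8304 of all tested genes. The windows of Igfbp2, Postn, Gpnmb and Insig1 are shown as strong higher genes, the strongest lower gene and a cholesterol feedback gene, all chosen after the values were seen. Capitals mark short strings on either strand: TATAAA for the TATA box, CCAAT for the CCAAT box, GGGCGG for the GC box, CACGTG for the E-box, CATGTG for an E-box variant, TGACTCA for the AP-1 site and TCACNCCAC for the core of the sterol regulatory element. The positions are chr1:72824230-72824529, chr3:54360857-54361156, chr6:49036268-49036567 and chr5:28071162-28071461 in that order, all on the plus strand.
Igfbp2: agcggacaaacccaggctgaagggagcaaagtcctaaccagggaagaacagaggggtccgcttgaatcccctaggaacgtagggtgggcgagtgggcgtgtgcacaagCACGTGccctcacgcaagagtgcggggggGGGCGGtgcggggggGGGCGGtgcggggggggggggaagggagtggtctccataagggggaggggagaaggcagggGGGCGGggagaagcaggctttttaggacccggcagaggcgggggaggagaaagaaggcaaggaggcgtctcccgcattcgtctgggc
Postn: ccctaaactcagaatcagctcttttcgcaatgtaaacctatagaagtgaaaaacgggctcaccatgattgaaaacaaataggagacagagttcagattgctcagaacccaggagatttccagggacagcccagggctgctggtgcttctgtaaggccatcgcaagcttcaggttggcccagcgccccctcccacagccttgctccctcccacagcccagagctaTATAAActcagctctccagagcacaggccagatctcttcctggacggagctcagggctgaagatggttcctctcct
Gpnmb: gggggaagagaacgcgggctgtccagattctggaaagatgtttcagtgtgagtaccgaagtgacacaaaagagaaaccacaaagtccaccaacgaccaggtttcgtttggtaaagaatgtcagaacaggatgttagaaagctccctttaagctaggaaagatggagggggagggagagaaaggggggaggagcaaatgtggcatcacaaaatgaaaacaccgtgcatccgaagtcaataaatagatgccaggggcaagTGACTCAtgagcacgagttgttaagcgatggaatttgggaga
Insig1: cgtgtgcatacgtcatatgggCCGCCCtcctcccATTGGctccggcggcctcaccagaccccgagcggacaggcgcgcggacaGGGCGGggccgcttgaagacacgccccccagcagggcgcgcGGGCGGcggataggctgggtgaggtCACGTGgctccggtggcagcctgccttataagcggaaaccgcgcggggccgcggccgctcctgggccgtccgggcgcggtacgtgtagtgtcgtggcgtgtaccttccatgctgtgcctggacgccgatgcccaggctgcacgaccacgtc
Igfbp2 has GC boxes and an E-box, Postn a TATA box near its start, Gpnmb an AP-1 string just inside the transcript, and Insig1 GC boxes, a CCAAT box and an E-box.

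In all, 14 strings were searched, chosen with the values known. The 7 not shown in capitals were CACCC as a Krüppel-like box, GGAATG as a TEAD site, CAGCTG as a further E-box, GCGTGGGCG as an EGR site, TCACGTGA as an extended E-box, and the CArG box and the palindromic E-box. The extended and the palindromic E-box contain CACGTG. The EGR site, the extended E-box, the CArG box and the palindromic E-box were in no window of the higher or lower genes, the cholesterol genes or the collagens. These strings were in only 1.24%, 2.19%, 0.0482% and 0.831% of all windows, in that order, so absence from so few windows tells little. The CCAAT box was in 9 of 10 cholesterol windows, beside 39.5% of all windows, and the GC box in 10 of 10, beside 66.9%. The sterol element core was in none of the 10 and in 1.02% of all windows. The E-box variant was in 4 of 11 lower genes (Gsto1, Itgb7, Plin4 and Wfdc3), beside 8.12% of all windows, and the AP-1 string in 2 of 11 (Gpnmb and Mt2), beside 3.55%. Among the 24 higher genes, the GC box was in 14, the CCAAT box in 12 and the TATA box in 3. The TEAD string was in 6 of the 24 and 0 of the 11 lower genes, beside 11.9% of all windows. CACCC was in 17 higher and 8 lower genes, beside 62.0% of all windows, and CAGCTG in 5 and 2, beside 14.3%. The TATA string was in 7.37% of all windows. A matching string is not a measured binding site, and the windows cover the core promoter only.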

How the data were processed

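Total RNA of 10 MEF libraries was sequenced on an Illumina HiSeq2000. Bowtie, TopHat, Cufflinks 1.2.1 and mm10 appear, without their roles, in the submitters' processing notes. The deposited table gives, per the file headers, a tag count and an RPKM value for each of 30646 RefSeq transcripts and each library. The counts were taken to be unnormalised. Their ratio to the RPKM values followed 1 factor per library and 1 per transcript. In 7630 transcripts above 5 RPKM everywhere, this held within 0.000167 log2 units. That ratio does not show which of them was computed from the other. How reads were counted, whether by strand, and what became of multiply aligned reads is not stated in the sources used here, so overlapping and near-identical genes cannot be separated.

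The 15 transcripts without a gene name, at most 0.0193% of a library's counts, were left out. For 4306 of 23370 symbols with several transcripts, the one with the highest mean RPKM was kept. The filter was 1 RPKM in 2 libraries. Folds are on log2(RPKM + 1), a pseudocount that makes the fold of genes with low RPKM too small. Depth sets the counting precision of each value, and the lowest count of a higher gene in any library was 12. Among the lower genes the lowest was 0, for Snord14a in naive cells at 0 h, and Snord14a had 6 to 27 counts in the pretreated libraries. The naive trend was fitted to counts with edgeR 4.0.16 (glmQLFit and glmQLFTest, TMM scaling, hours as a linear term, 3 residual degrees of freedom), two-sided, and adjusted by Benjamini-Hochberg. On simulated counts for 12168 genes it recovered 32.8% of genes changed 1.5-fold over 6 h, 97.0% of those changed 2-fold and 100% of those changed 4-fold, and 5.56% of the calls were false. Those counts had a single fixed spread about the mean, not the one estimated from these libraries. The changes followed exact straight lines in 67, 67 and 66 well-counted genes, so the figures hold for that setting only. DESeq2 1.42.0 and limma 3.58.1 were alternatives, as were other scalings, filters, pseudocounts, gap sizes and the removal of each library.

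The genes of the split, the 44 gene lists, the motifs and the alternatives were chosen with earlier results of these data known. Genes to be named were the 20 with the widest gap in each direction, the members of the lists, marker, imprinted, Hox and sex chromosome genes, and H3f3b. Other genes of the split that are named were chosen after their values were seen. Lists are described by counts and medians, with no test. Some genes that the rule takes are left out of the text and the heat map.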

Additional observations from a re-analysis of the deposited data

How the results depend on the processing

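The 47 higher and 18 lower genes depend on the pseudocount and the gap: there were 82 and 29 with a pseudocount of 0.1, 9 and 3 at a 2-fold gap, and 1095 and 1254 with no minimum gap. Lower genes came to 11 with a 5 RPKM filter and to 11 with DESeq2 size factors. With TMM scaling the counts were 52 and 12, and the genes lost under 1 or both scalings included Gsto1, Eps8, Dlgap2 and Nceh1, and among the higher genes Col11a1 (a gap of 0.57 log2 units with TMM), Mrvi1 (0.58) and Rgs16 (0.54). Subtracting the naive library of the same time left 16 higher genes. Leaving out a pretreated library loosens the rule and gave 62 to 96 higher and 25 to 55 lower genes. Filters, pseudocounts and gap sizes cannot change the order of the libraries within a gene, and the 5 RPKM filter tested 44 of the 65. Under the TMM and DESeq2 scalings the genes of the split kept their direction. After subtraction of the naive library of the same time, 14 of the 65 gaps passed 1.5-fold and 51 did not. Among those 51, the sides overlapped for a number of genes, among them Gjb2 (-0.14 log2 units) and Fxyd1 (-0.20). They also overlapped for Egr1, with a difference of -0.03 at 1 h and 1.13 at 2 h, and for Egr2, Egr3 and Nr4a1. Among the lower genes they overlapped for Gpnmb, with 0.77 at 1 h and 0.28 at 6 h.

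The naive trend was called for 1662 genes in the edgeR fit, for 3854 with DESeq2, for 2582 with times ranked in order, and for 0 to 2780 when 1 library was left out. Higher genes called falling numbered 8, and 17 with DESeq2, 13 with limma and 0 to 12 without 1 library. Lower genes called rising numbered 4, and 7 with DESeq2 and 0 to 7 without 1 library. The cause was not tested. No paired analysis was possible because the labels carry no replicate numbers and the split compares times within 1 arm; the arms were matched by time only in the subtraction. With 1 library per arm and time, differences between libraries and between cultures cannot be told apart.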
